A study of Mus musculus with 30 samples.

Results

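The genes described here encode the receptors that recognise double-stranded RNA and the proteins that relay their signal. They were taken as the rows of the microglial TPM table whose symbol is Tlr3, Ticam1, Ddx58, Ifih1, Dhx58, Mavs, Tbk1, Irf3, Eif2ak2 or Adar, and 9 of these 10 genes had a row, 1 each, among 14225 transcripts of 13483 gene symbols. Adar, the enzyme that edits adenosine in double-stranded RNA, had no row and was not analysed here. The choice used gene names and no measured value.

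RNA was measured in microglia of C57BL/6J mice, isolated with CD11B beads from the whole brain, in 30 libraries that form 10 groups of 3. Pregnant dams were injected with saline ("Saline") or with poly(I:C), which is itself a double-stranded RNA made in the laboratory and is used here for maternal immune activation ("MIA"). Their offspring were taken at E17, P7, P20 and P60. At P60 both kinds of offspring had been fed control chow throughout ("CTRL") or chow with PLX5622, an inhibitor of CSF1R that depletes microglia, followed by control chow during which microglia repopulate the brain ("MG-REP"). Poly(I:C) was given to the dams only. A library held the brains of 1 litter at E17, 3 pooled brains at P7 and 1 brain at P20 and P60, so its spread is between litters, pools or mice. Mice of both sexes were used and the labels give no sex. CD11B is carried by other myeloid cells too, so the isolation does not separate microglia from other macrophages, monocytes or neutrophils.

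Cells meet double-stranded RNA in endosomes and in the cytosol. In endosomes TLR3 binds it and signals through TICAM1 (TRIF). In the cytosol RIG-I (Ddx58) and MDA5 (Ifih1) bind it and signal through MAVS on mitochondria, while LGP2 (Dhx58) binds it without signalling alone and modulates the other helicases. Both routes reach the kinase TBK1, which phosphorylates IRF3, and IRF3 turns on interferon-beta. PKR (Eif2ak2) binds the same RNA and stops translation. Ddx58, Ifih1, Dhx58 and Eif2ak2 are textbook interferon-stimulated genes, switched on through interferon-stimulated response elements.

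Promoter sequence is shown for the members whose window holds a simplified interferon-stimulated response element or NF-kB motif. The windows run from 250 bases before to 50 after annotated start sites in RefSeq annotation of GRCm38.p6, and 9 of the 10 genes matched an entry, Dhx58 being the one that did not. A simplified interferon-stimulated response element, GAAANNGAAA on either strand, was found in Ifih1, Ddx58 and Eif2ak2. It was not found in Tlr3, Ticam1, Mavs, Tbk1, Irf3 or Adar. Of all 32851 promoters 3.44% held it, and of 27025 genes 3.99% held it in any promoter. All 3 matches begin after the start site, at base 33 in Ifih1 (window chr2:62646206-62646233), base 3 in Ddx58 (chr4:40239804-40239833) and base 19 in Eif2ak2 (chr17:78882535-78882564), each on the minus strand. A simplified NF-kB motif, GGGANNTTCC on either strand, was found in Tlr3 alone of the 9, beginning at position -211 from the start site (chr8:45410572-45410601, minus strand). Of all promoters 1.47% held it, and of all genes 1.63%. The start site used for Tlr3 lies inside the span of the gene given below, downstream of its outermost start, so the Tlr3 match is also inside the gene. A gamma-activated sequence, TTCNNNGAA, was found in Eif2ak2 and Adar, in 8.3% of all promoters and in 9.55% of all genes. Its windows are not printed. The sequences below run 5′ to 3′ on the strand of the gene with the match in capitals, and in Ddx58 the match is the reverse complement of the motif.
Ifih1: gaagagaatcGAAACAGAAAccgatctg
Ddx58: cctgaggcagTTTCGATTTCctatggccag
Eif2ak2: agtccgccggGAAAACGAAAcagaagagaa
Tlr3: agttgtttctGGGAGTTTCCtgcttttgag
These matches describe letters in a window and were not tied to binding of any factor.

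The values are TPM, a share of transcripts corrected for transcript length, computed by the authors for single RefSeq transcripts. The sum of a library lay between 995495 and 998012 TPM, and the steps between its low values correspond to about 7950000 to 12760000 counted reads. The microglial markers C1qa, Csf1r, Cx3cr1, Fcrls, P2ry12 and Tmem119 summed to between 12177 TPM in E17 MIA library 1 and 36590 TPM in P60 Saline + CTRL library 3. They were thus abundant in every library, and no label went against them. Markers of neurons, of which 3 of 5 had a row, reached at most 863 TPM, those of astrocytes (5 of 5) 247 TPM, those of endothelial cells (3 of 5) 104 TPM and those of NK and T cells (2 of 5) 16.7 TPM. Those of oligodendrocytes (4 of 5) reached 2619 TPM in P20 Saline library 1. The 3 P60 Saline + MG-REP libraries stood apart from the other P60 libraries. Their 6 mitotic markers summed to 974, 386 and 335 TPM, against at most 18.5 TPM in the other 9 P60 libraries, and their 6 border macrophage markers to 1320, 687 and 689 TPM, against at most 568 TPM. Of the 5 monocyte and neutrophil markers with a row, the sums were 83.3, 4025 and 288 TPM in libraries 1, 2 and 3 of that group, against 401 to 712 TPM in the other P60 libraries. The highest of these sums was made mostly of S100a8 (2754 TPM) and Ngp (1136 TPM) in library 2. In bulk RNA, fewer cells of a type and less RNA per cell cannot be told apart.

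The levels of the 9 transcripts fell into 2 ranges. Tlr3, Ticam1, Tbk1, Eif2ak2, Dhx58 and Ddx58 were at 16.6 TPM or more in every library, on an estimated 141 to 2220 reads. Mavs, Irf3 and Ifih1 stayed between 0.38 and 7.18 TPM, on an estimated 6 to 51 reads. Read assignment may bear on this: the Irf3 row is a non-coding RefSeq variant (NR_045611), and its coding transcript had no row. RefSeq lists 4 curated transcripts for Mavs and 2 each for Irf3 and Ifih1, against 1 for Ticam1, Tbk1, Ddx58, Dhx58 and Eif2ak2 and 3 for Tlr3. Over the whole table, rows of genes with 1 curated transcript had a median of 25.5 TPM and rows of genes with several a median of 6.26 TPM. Each value is the level of 1 transcript row and may differ from that of the gene, for Tlr3 as for Mavs, Irf3 and Ifih1. How reads shared between transcripts were assigned was not tested.

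**Figure D1:**
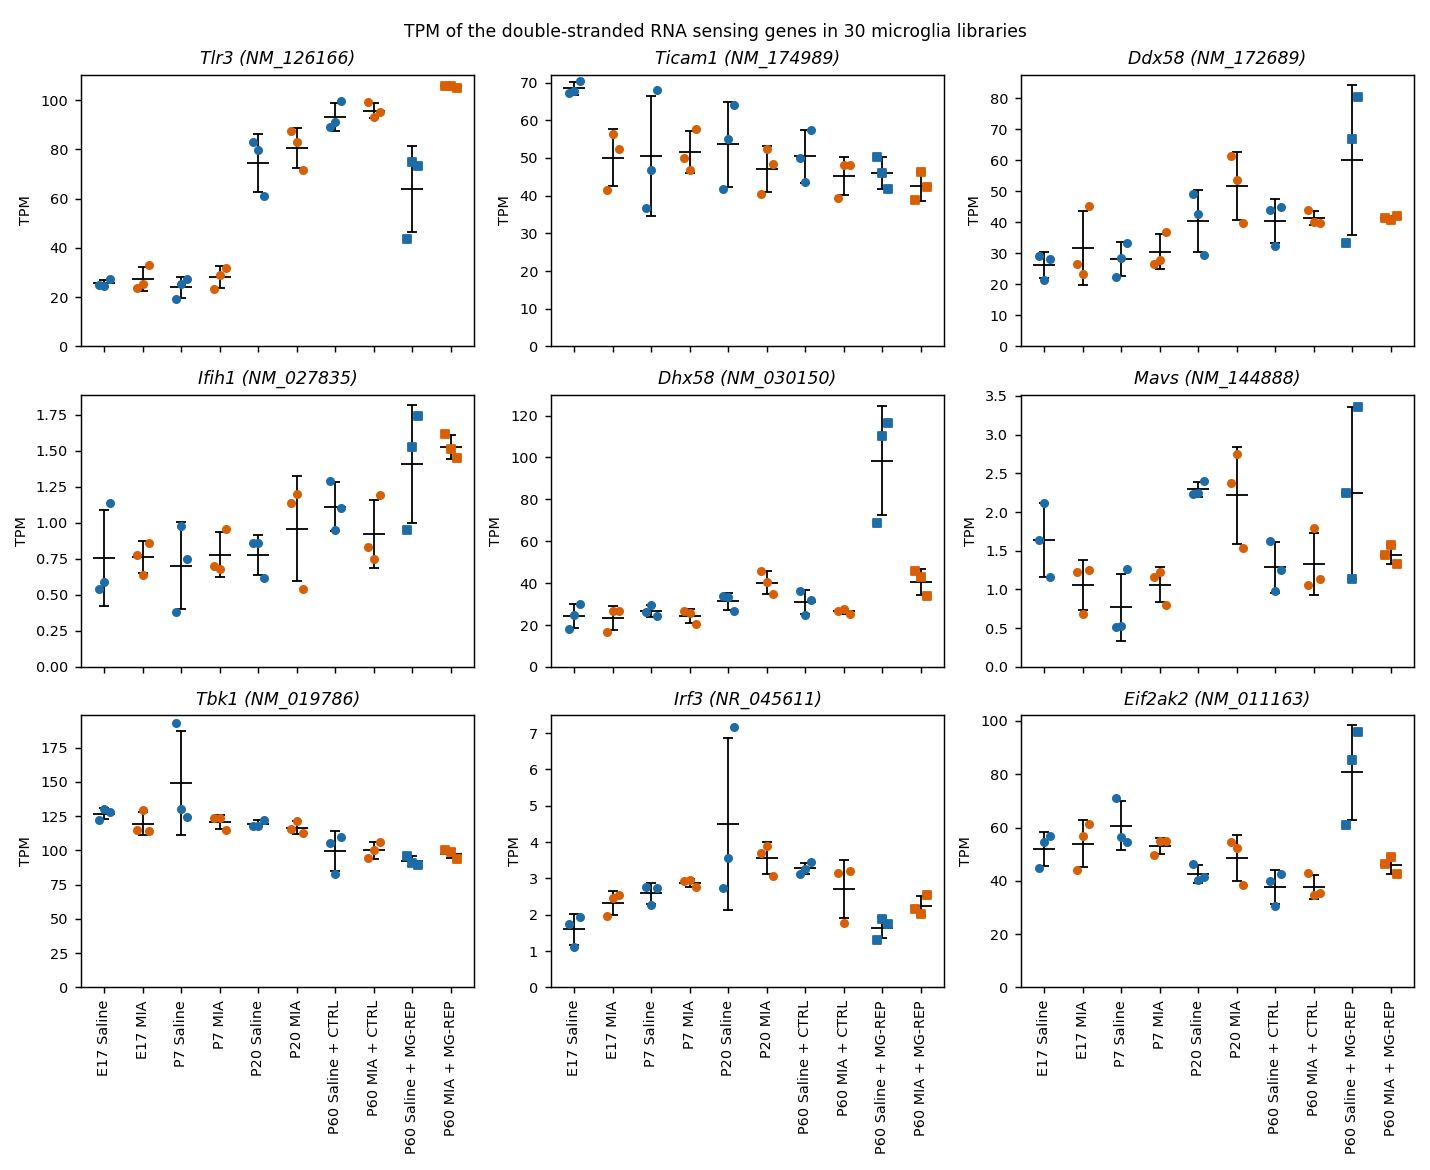
TPM (linear axis from 0) of the 9 transcripts in each of 30 libraries, in 10 groups of 3; blue points are Saline and orange points MIA offspring, circles untreated or CTRL and squares MG-REP, and bars give the mean and SD. Tlr3 steps up from at most 33.1 TPM at E17 and P7 to at least 61 TPM at P20, Dhx58 is highest in the 3 P60 Saline + MG-REP libraries, and Eif2ak2 has its highest group mean there (80.8 TPM).

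Tlr3 (NM_126166, chromosome 8, 45395665 to 45411075 in GRCm38.p6), the endosomal receptor, was the member that changed most with age. At E17 it measured 25, 24.6 and 27.4 TPM in the Saline and 23.6, 25.5 and 33.1 TPM in the MIA libraries, and at P7 19.3, 25.4 and 27.3 TPM in Saline and 23.3, 29.2 and 32 TPM in MIA. At P20 it measured 82.8, 79.7 and 61 TPM in Saline and 87.4, 82.9 and 71.4 TPM in MIA. At P60 with control chow it measured 88.9, 91.1 and 99.7 TPM in Saline and 99.1, 93 and 95.1 TPM in MIA. All 12 libraries of the earlier ages lay below all 12 of the later ages, and at each age the ranges of Saline and MIA overlapped. Between P7 and P20, averaged over Saline and MIA, the mean TPM went from 26.1 to 77.5, which is 1.54 ± 0.12 on the log2 scale (SE; limma on log2(TPM + 1), adjusted p = 2.77e-10). In order of group means, from P7 Saline as the lowest to MIA + MG-REP as the highest, 3 of 9 neighbouring pairs had libraries that did not overlap. These steps led up to Saline + MG-REP (mean 63.9 TPM), to Saline + CTRL (93.2 TPM) and to MIA + MG-REP (106 TPM). The authors placed the transcript in their adult microglia module.

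Age was compared in 3 steps and from end to end, with Saline and MIA averaged, and the share of all 14225 transcripts past an adjusted p of 0.05 is given beside each count. Between E17 and P7 none of the 9 members changed (limma; background 10.8%), 1 having an unadjusted p under 0.05. Between P7 and P20, 6 of 9 changed where 50.7% of all transcripts did. Besides Tlr3, the rises were Mavs, from a mean of 0.915 to 2.26 TPM (log2 fold change 0.78 ± 0.16, adjusted p = 0.000241), Ddx58, from 29.3 to 46.1 TPM (0.62 ± 0.19, adjusted p = 0.00801), Dhx58, from 25.5 to 35.8 TPM (0.46 ± 0.15, adjusted p = 0.0114), and the Irf3 row, from 2.73 to 4.03 TPM (0.38 ± 0.15, adjusted p = 0.0401). Eif2ak2 fell from 57 to 45.6 TPM (-0.32 ± 0.12, adjusted p = 0.0275). The Irf3 call was kept in 5 of 12 fits without 1 library, and without P20 Saline library 3, at 7.18 TPM, the value was 0.22 (adjusted p = 0.164). It was also lost with a pseudocount of 0.1 (0.48, adjusted p = 0.0581) and with log2 Xist as a covariate (0.37, adjusted p = 0.0507). With only the groups compared the Irf3 value was 0.38 (adjusted p = 0.101). The fall of Eif2ak2 was kept in 8 of 12 such fits, at a lowest size of -0.24 without P20 MIA library 3 (adjusted p = 0.0965), and was lost when libraries were scaled by the median ratio (-0.25, adjusted p = 0.101). Beside this background, 6 calls in 9 members are no result about the members as a set.

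Between P20 and P60, 1 of 9 members changed (background 12%). Mavs fell from a mean of 2.26 to 1.31 TPM (log2 fold change -0.50 ± 0.16, limma adjusted p = 0.0401), a call lost in 9 of 12 fits without 1 library. From E17 to P60, 6 of 9 changed (background 61.7%). Tlr3 rose from 26.5 to 94.5 TPM (1.80 ± 0.12, adjusted p = 7.72e-12), Ddx58 from 29 to 40.9 TPM (0.51 ± 0.19, adjusted p = 0.0203) and the Irf3 row from 1.96 to 3 TPM (0.44 ± 0.15, adjusted p = 0.0159). Eif2ak2 fell from 53 to 37.7 TPM (-0.48 ± 0.12, adjusted p = 0.00117), the kinase Tbk1 from 123 to 99.8 TPM (-0.31 ± 0.08, adjusted p = 0.00264) and the TLR3 adaptor Ticam1 from 59.3 to 47.8 TPM (-0.29 ± 0.13, adjusted p = 0.047). With Saline and MIA averaged, the endosomal receptor and its adaptor thus moved in opposite directions over this span. For Ticam1, E17 Saline (67.1 to 70.3 TPM) lay above Saline + CTRL (43.7 to 57.5 TPM). In MIA offspring its E17 (41.6 to 56.5 TPM) and CTRL libraries (39.3 to 48.2 TPM) overlapped. Ticam1 kept its call in 4 of 12 fits without 1 library. It lost the call under median-ratio scaling (-0.22, adjusted p = 0.229), as did Tbk1 (-0.23, adjusted p = 0.0849). With log2 Xist as a covariate 2 of the 6 calls were kept, and those of Eif2ak2 (-0.34, adjusted p = 0.0816), Ddx58 (0.60, adjusted p = 0.0583), Irf3 (0.50, adjusted p = 0.0523) and Ticam1 (-0.41, adjusted p = 0.0521) were lost. Age also moved the proliferation markers, whose sum lay between 705 and 849 TPM in the 12 E17 and P7 libraries and between 17.5 and 31.4 TPM in the 6 P20 libraries. Other marker sums moved between P7 and P20 as well, given here as Saline and MIA means. Microglial markers went from 18550 and 18650 to 29640 and 33790 TPM. Border macrophage markers went from 1873 and 1671 to 764 and 659 TPM. Oligodendrocyte markers went from 167 and 170 to 1686 and 1216 TPM. The part of proliferating cells or of these other cell types in the changes with age was not tested.

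**Figure D2:**
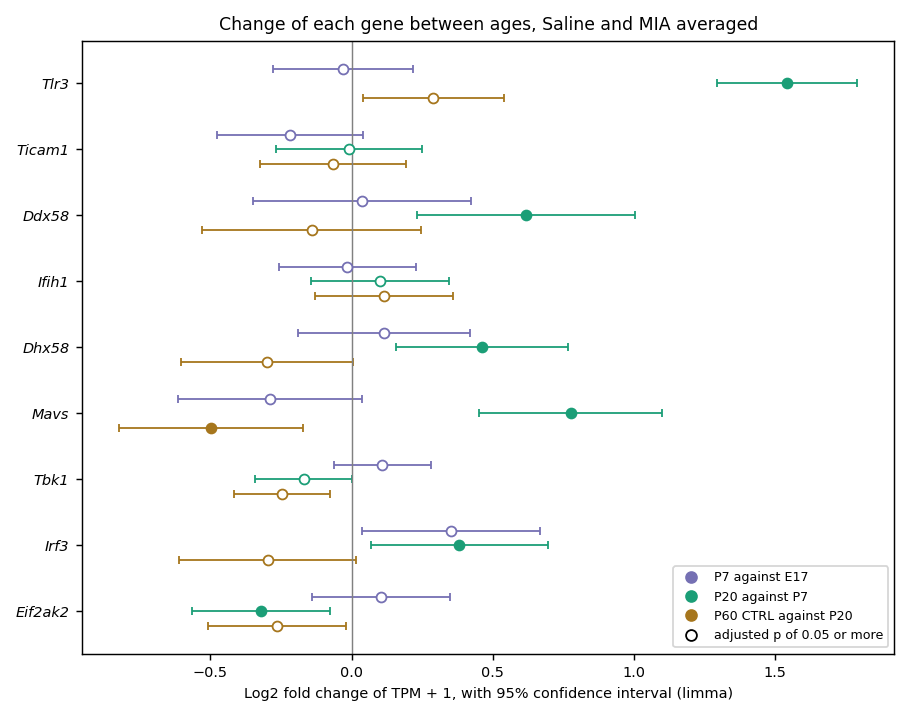
Log2 fold change of TPM + 1 with its 95% confidence interval (limma) for each of 9 members over 3 age steps, Saline and MIA averaged; filled points have an adjusted p under 0.05. The step from P7 to P20 holds 6 filled points, led by Tlr3 at 1.54, and the step from E17 to P7 none.

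Whether offspring of poly(I:C)-treated dams expressed the sensors of that agent differently was asked at each age. No member differed between MIA and Saline at E17 (limma; 0% of all transcripts called, 585 with an unadjusted p under 0.05), at P7 (0%, 335 transcripts), at P20 (0%, 457 transcripts) or at P60 with control chow (0%, 256 transcripts). Averaged over the 4 ages none differed either (0%, 477 transcripts), and no MIA effect differed among ages (0%, 224 transcripts). The smallest adjusted p of any member in these comparisons was 0.754. At an unadjusted p under 0.05 there were 2 values. Ticam1 at E17 measured 67.1, 67.8 and 70.3 TPM in Saline and 41.6, 56.5 and 52.3 TPM in MIA. Its groups did not overlap, with a log2 fold change of -0.45 ± 0.18. Tbk1 at P7 measured 193, 130 and 124 TPM in Saline and 123, 124 and 115 TPM in MIA. The lowest Saline value lay just above the highest MIA value, library 1 raised the Saline mean, and the log2 fold change was -0.28 ± 0.12. Averaged over ages the 95% intervals were -0.06 to 0.29 for Tlr3, -0.17 to 0.19 for Ifih1, -0.09 to 0.46 for Ddx58, -0.23 to 0.20 for Dhx58 and -0.16 to 0.18 for Eif2ak2 on the log2 scale. These intervals rest on 3 libraries per group at each of 4 ages, and differences within them are not excluded.

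Microglial repopulation was compared with control chow at P60 within Saline and within MIA offspring. In Saline offspring 4 of 9 members changed (background 26.7%): the cytosolic sensor Dhx58 and the kinase Eif2ak2 rose, and Tlr3 and the Irf3 row fell. Dhx58 (NM_030150, chromosome 11, 100694884 to 100704271) measured 36.3, 24.9 and 32.1 TPM in Saline + CTRL and 68.6, 110 and 116 TPM in Saline + MG-REP. The groups did not overlap, and the rise of 3.17 times in mean TPM corresponds to a log2 fold change of 1.61 ± 0.21 (limma adjusted p = 2.11e-06). Eif2ak2 (NM_011163, chromosome 17, 78850504 to 78882572) measured 40, 30.4 and 42.7 TPM in Saline + CTRL and 61.1, 85.5 and 95.8 TPM in Saline + MG-REP. These groups did not overlap either, and the log2 fold change was 1.07 ± 0.17 (adjusted p = 2.89e-05). Both genes kept their call in all 6 fits without 1 library, at 1.46 to 1.85 for Dhx58 and 0.93 to 1.26 for Eif2ak2. Without library 2, which held the S100a8 and Ngp signal, the values were 1.51 (adjusted p = 3.52e-05) and 1.02 (adjusted p = 0.000299). Library 1, with the highest mitotic and border macrophage sums, had the lowest level of both genes within its group, and without it the values were 1.85 and 1.26. Whether mitotic cells or border macrophages contributed to the rise in the other libraries was not tested.

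Tlr3 measured 43.8, 74.7 and 73.3 TPM in Saline + MG-REP, all below the 88.9 to 99.7 TPM of Saline + CTRL, which gave -0.58 ± 0.17 on the log2 scale (limma adjusted p = 0.0134). This call was lost without Saline + MG-REP library 1 (-0.33, adjusted p = 0.167), without Saline + CTRL library 3 (-0.53, adjusted p = 0.0507) and under median-ratio scaling (-0.44, adjusted p = 0.0531). The Irf3 row fell from 3.13, 3.27 and 3.44 TPM to 1.31, 1.87 and 1.75 TPM (-0.70 ± 0.22, adjusted p = 0.0172) and missed the threshold without library 1 (-0.61, adjusted p = 0.0903), under quantile normalization (-0.52, adjusted p = 0.124) and with only the groups compared (-0.70, adjusted p = 0.0533). These groups did not overlap, on an estimated 10 to 51 reads per library.

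The remaining members did not pass in Saline offspring. Ddx58 (RIG-I; NM_172689, chromosome 4, 40203777 to 40239825) measured 44.1, 32.4 and 44.9 TPM in Saline + CTRL and 33.4, 66.7 and 80.4 TPM in Saline + MG-REP. Libraries 2 and 3 lay above every CTRL library and library 1 among them, so the fold change was 0.49 ± 0.26 (limma adjusted p = 0.192) with library 1 and 0.86 (adjusted p = 0.0167) without it. Mavs (NM_144888, chromosome 2, 131234063 to 131248025) measured 1.63, 0.98 and 1.25 TPM in Saline + CTRL and 2.24, 1.14 and 3.36 TPM in Saline + MG-REP. These groups overlapped (0.46 ± 0.22, adjusted p = 0.14), and the value passed without library 2 (0.73, adjusted p = 0.0168). Ifih1 (MDA5; NM_027835, chromosome 2, 62595618 to 62646255) measured 1.29, 0.95 and 1.1 TPM in Saline + CTRL and 0.95, 1.53 and 1.74 TPM in Saline + MG-REP, which overlap (0.18 ± 0.17, adjusted p = 0.491). Ticam1 (NM_174989, chromosome 17, 56269462 to 56276767) lay between 41.7 and 57.5 TPM and Tbk1 (NM_019786, chromosome 10, 121546455 to 121586794) between 82.8 and 110 TPM in these 6 libraries, with 95% intervals of -0.49 to 0.24 and -0.34 to 0.15. Of the 4 sensors, Dhx58 was thus called higher, Tlr3 lower, and Ddx58 and Ifih1 were not called.

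In MIA offspring, compared with their own CTRL libraries, no member changed with repopulation (limma; background 0.555%, 79 transcripts), and 2 had an unadjusted p under 0.05. Dhx58 measured 26.7, 27.6 and 25.2 TPM in MIA + CTRL and 45.6, 43 and 33.7 TPM in MIA + MG-REP. The groups did not overlap, and the log2 fold change was 0.59 ± 0.21 (adjusted p = 0.403). Ifih1 measured 0.83, 0.75 and 1.19 TPM in MIA + CTRL and 1.62, 1.51 and 1.45 TPM in MIA + MG-REP, again without overlap (0.40 ± 0.17, adjusted p = 0.64). Eif2ak2 measured 42.8, 34.7 and 35.4 TPM in MIA + CTRL and 46.2, 49 and 42.4 TPM in MIA + MG-REP (0.28 ± 0.17, adjusted p = 0.934). Tlr3 was at 106, 106 and 105 TPM in MIA + MG-REP, its highest group, and its interval against MIA + CTRL was -0.21 to 0.49.

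The difference between the repopulation effects in MIA and Saline offspring was tested as an interaction, and 2 of 9 members passed (background 10.5%). For Dhx58 it was -1.02 ± 0.29 (limma adjusted p = 0.0265) and for Eif2ak2 -0.79 ± 0.24 (adjusted p = 0.0326) on the log2 scale. By this test the change of both genes from CTRL to MG-REP was smaller in MIA than in Saline offspring, and in MIA offspring alone neither was called. The call of Dhx58 was kept in 7 of 12 fits without 1 library and that of Eif2ak2 in 6 of 12. Both calls were lost without Saline + CTRL library 2 (-0.87 and -0.65), without Saline + MG-REP library 2 (-0.92 and -0.74) or 3 (-0.88 and -0.65) and without MIA + MG-REP library 3 (-0.89 and -0.73). That of Dhx58 was also lost without MIA + CTRL library 2 (-0.99), and that of Eif2ak2 without MIA + CTRL library 1 (-0.70) or MIA + MG-REP library 1 (-0.80). Both were lost when only the 4 groups at P60 were fitted (-1.02, adjusted p = 0.0564, and -0.79, adjusted p = 0.0785) and under quantile normalization (-0.97, adjusted p = 0.106, and -0.77, adjusted p = 0.0659). For Tlr3 the interaction was 0.72 ± 0.24 (adjusted p = 0.0583), and with the replicate number as a block it passed (adjusted p = 0.0259). Without Saline + MG-REP library 1 the Tlr3 value was 0.47 (adjusted p = 0.222).

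**Figure D3:**
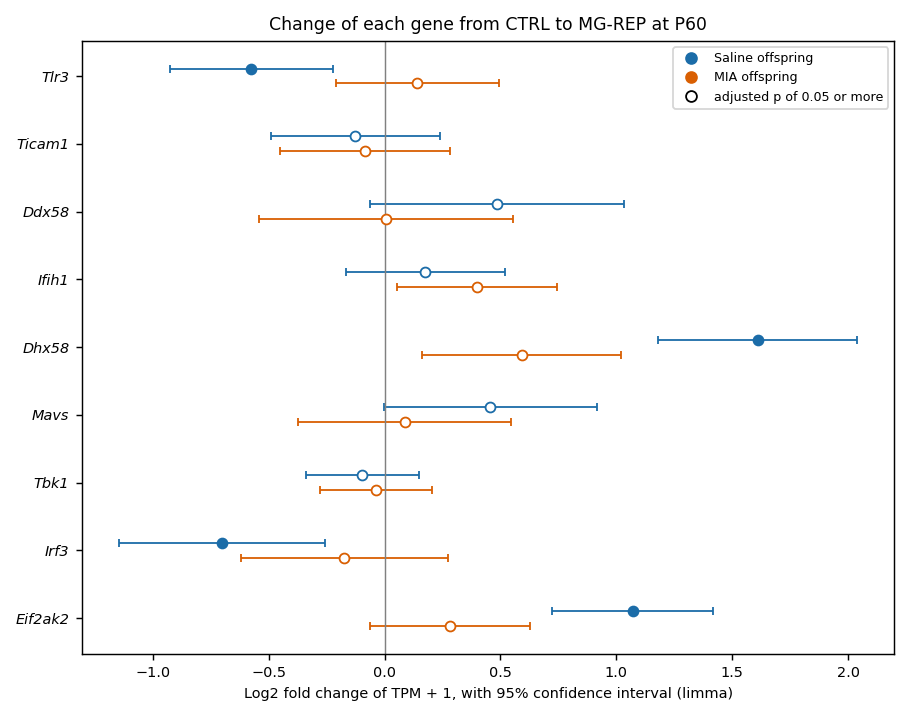
Log2 fold change of TPM + 1 from CTRL to MG-REP at P60 with its 95% confidence interval (limma) for each of 9 members, in Saline (blue) and MIA (orange) offspring, 3 libraries a group; filled points have an adjusted p under 0.05. Dhx58 and Eif2ak2 are filled to the right in Saline offspring (1.61 and 1.07), Tlr3 and Irf3 to the left (-0.58 and -0.70), and no point is filled in MIA offspring.

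Set directly against each other, MIA + MG-REP and Saline + MG-REP differed in 3 of 9 members (background 22%). This comparison uses the same MG-REP libraries as those above. Dhx58 was lower in MIA + MG-REP, with means of 40.7 and 98.4 TPM (log2 fold change -1.23 ± 0.21, limma adjusted p = 0.000117), as was Eif2ak2, with means of 45.9 and 80.8 TPM (-0.78 ± 0.17, adjusted p = 0.00136). Tlr3 was higher, with means of 106 and 63.9 TPM (0.75 ± 0.17, adjusted p = 0.00214). The libraries of the 2 groups overlapped in none of these genes, which were picked by their calls. The share of all transcripts without overlap is not given, so this adds nothing to the calls. All 3 calls held in the 6 fits without 1 library. With only these groups fitted the Tlr3 call was lost (0.75, adjusted p = 0.053). Ddx58 passed only without Saline + MG-REP library 1 (-0.81, adjusted p = 0.0319), and Mavs only without library 2 (-0.62, adjusted p = 0.0467). The border macrophage markers summed to 267 to 398 TPM and the mitotic markers to 14.2 to 17.1 TPM in MIA + MG-REP, against at least 687 and 335 TPM in Saline + MG-REP. The microglial markers summed to 28078 to 31192 TPM against 18104 to 19898 TPM. Their part in the differences was not tested.

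Xist, transcribed from the inactive X chromosome of females, measured between 159 and 174 TPM in the 6 MG-REP libraries. It measured 124 and 140 TPM in library 1 of the CTRL groups and at most 0.29 TPM in their libraries 2 and 3, so by this transcript all 6 MG-REP libraries held female cells and 4 of 6 CTRL libraries male cells. All 6 P20 libraries measured 172 to 193 TPM, so Xist moved with the diet at P60 and with the step from P20 to P60. The 1700 calls of that step over all transcripts fell to 365 with log2 Xist as a covariate. The P7 libraries, of pooled brains, measured 80.1 to 128 TPM apart from P7 MIA library 2 at 222 TPM, so Xist also shifted between P7 and P20. With log2 Xist as a covariate, repopulation in Saline offspring gave 1.46 for Dhx58 (limma adjusted p = 0.000294), 0.91 for Eif2ak2 (adjusted p = 0.00275) and -0.57 for Tlr3 (adjusted p = 0.0651). The direct comparison of the 2 MG-REP groups, all of whose libraries express Xist, is free of that difference.

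The other genes of the pathway were followed in a list of 66 genes, of which 51 had a row, as 56 transcripts. With repopulation in Saline offspring, where 26.7% of all transcripts were called, 17 of 56 were higher and 7 lower. Their median log2 fold change was 0.13 against -0.14 over all transcripts. The largest changes lay in nucleic acid sensors and in RNA-decay enzymes. Ifi204, a sensor of DNA, rose from a mean of 15.8 to 203 TPM (3.59 ± 0.24, limma adjusted p = 9.17e-11) and Zbp1, a sensor of Z-form nucleic acid, from 4.1 to 36.2 TPM (2.86 ± 0.35, adjusted p = 8.79e-07). Oas3 and Oas1a, which make a second messenger of RNA decay on meeting double-stranded RNA, rose from 2.04 to 28 TPM (3.16 ± 0.34, adjusted p = 1.22e-07) and from 9.77 to 68.9 TPM (2.69 ± 0.29, adjusted p = 1.73e-07). By role, 6 of 12 transcripts of RNA decay and translation, 3 of 4 of the DNA and Z-nucleic acid sensors, 2 of 3 of the endosomal partners and 2 of 8 of the inhibitors were higher and none of these groups held a lower one. Of the sensor cofactors 3 of 12 were higher and 2 lower, of the adaptors and kinases 1 of 13 was higher and 3 lower, and of the transcription factors 0 of 4 were higher and 2 lower. Beside the 26.7% of all transcripts, these counts in groups of 3 to 13 transcripts are no result about a role. Ifi204 and the Oas genes belong to families of close copies, so reads may have been split between them. In MIA offspring (background 0.555%) 2 of 56 were higher, Ifi204 (1.74 ± 0.24, limma adjusted p = 0.000302) and Oas1a (1.40 ± 0.29, adjusted p = 0.0219). In 5 of the 6 fits without 1 library the count of higher transcripts was 1.

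Signalling by type I interferon, which lies downstream of the sensors, was followed in 34 genes, of which 29 had a row, as 33 transcripts. With repopulation in Saline offspring (background 26.7%) 24 of 33 were higher and 1 was lower, and the median was 0.97 against -0.14 over all transcripts. Ifnb1, the interferon that IRF3 turns on, was listed at 0, 0.36 and 0 TPM in Saline + CTRL and at 3.72, 7.07 and 6.75 TPM in Saline + MG-REP. The groups did not overlap, with a difference of 2.59 ± 0.41 on the log2(TPM + 1) scale (limma adjusted p = 3.21e-05). P7 Saline library 1, at 9.2 TPM, lay above all of these. The values are low, and the reads behind Ifnb1 were not estimated. In MIA + MG-REP Ifnb1 measured 1.02, 0.64 and 1.89 TPM, above the 0.43, 0 and 0 TPM of MIA + CTRL and below all of Saline + MG-REP (-1.65 ± 0.41 against that group, adjusted p = 0.00469). Cxcl10, a chemokine induced by interferon, measured 56.8, 49.5 and 48.1 TPM in Saline + CTRL and 1363, 828 and 886 TPM in Saline + MG-REP (4.26 ± 0.32, adjusted p = 3.84e-10). It measured 99.7, 103 and 64.8 TPM in MIA + MG-REP. Ifi27l2a, an interferon-stimulated gene, rose from a mean of 23.8 to 443 TPM in Saline (4.19 ± 0.21, adjusted p = 8.81e-13) and from 24.6 to 61.4 TPM in MIA offspring (1.29 ± 0.21, adjusted p = 0.00135), the 1 transcript of this list called there. Ifit2, an interferon-induced RNA-binding protein, rose from 16 to 107 TPM in Saline offspring (2.47 ± 0.36, adjusted p = 1.28e-05). Without Saline + MG-REP library 1 the count of higher transcripts was 26, without library 2 it was 20, and with log2 Xist as a covariate it was 16 in Saline and 0 in MIA offspring. In library 1 Ccl5, an interferon-responsive chemokine, was at 16.7 TPM, against 208 and 226 TPM in libraries 2 and 3, and Usp18, an inhibitor of interferon signalling, at 30.9 TPM against 97.8 and 111 TPM. The same library was high in Cxcl10, so interferon-responsive genes did not all follow one order among the 3 libraries.

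**Figure D4:**
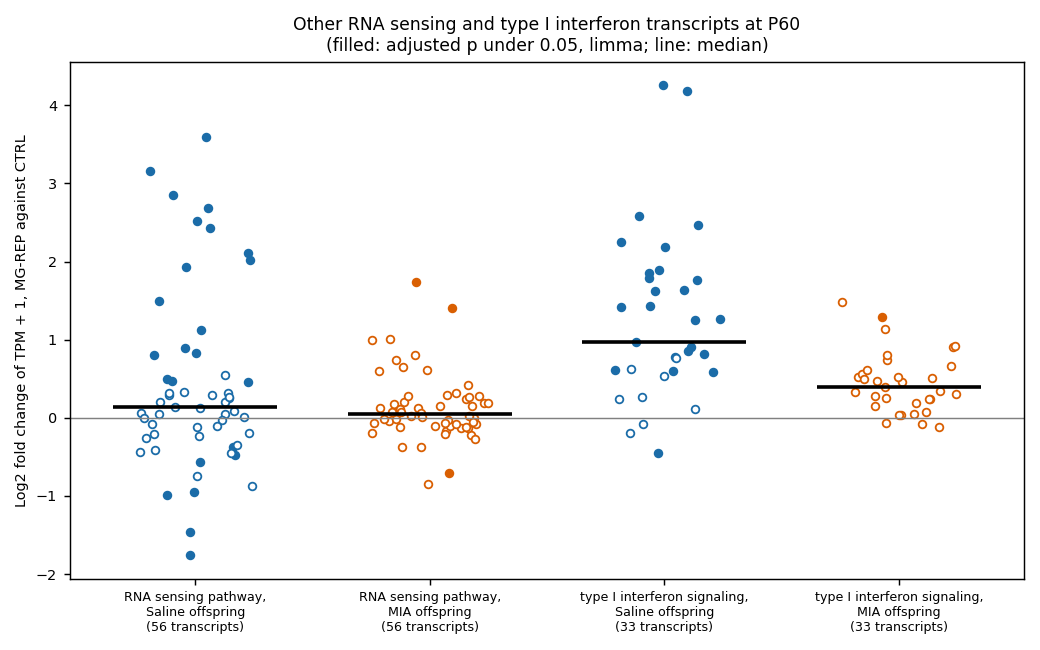
Log2 fold change of TPM + 1 from CTRL to MG-REP at P60 for 56 transcripts of the RNA sensing pathway and 33 of type I interferon signalling, members left out, in Saline (blue) and MIA (orange) offspring; filled points have an adjusted p under 0.05 (limma), lines are medians and the sideways position is random. In Saline offspring (background 26.7%) 24 filled points of the interferon list lie above 0 around a median of 0.97, and in MIA offspring (background 0.555%) 1 does, around a median of 0.40.

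The interaction of repopulation with MIA passed for 10.5% of all transcripts. Its median was 0.04 over all, -0.05 over the 56 pathway and -0.72 over the 33 interferon transcripts. The test passed for 11 pathway transcripts, 3 higher and 8 lower, and for 6 interferon transcripts, all lower. Without Saline + MG-REP library 1 the latter count was 10, and with the replicate block it was 8. It was 4 without Saline + CTRL library 3, MIA + CTRL library 1, Saline + MG-REP library 2 or MIA + MG-REP library 3. The largest were Cxcl10 (-3.12 ± 0.45, limma adjusted p = 4.47e-05), Ifi27l2a (-2.90 ± 0.29, adjusted p = 3.58e-07), Zbp1 (-2.21 ± 0.49, adjusted p = 0.00413) and Oas3 (-2.15 ± 0.48, adjusted p = 0.00407). In the direct comparison of MG-REP groups (background 22%) 16 of 56 pathway and 16 of 33 interferon transcripts were lower in MIA, and 4 and 1 were higher. Without Saline + MG-REP library 1 the interferon transcripts lower in MIA numbered 23, and without library 2 or library 3 of that group 12. Bst2, an interferon-induced protein that tethers virions, had means of 372 TPM in MIA + MG-REP and 1255 TPM in Saline + MG-REP (-1.75 ± 0.16, adjusted p = 2.03e-08).

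Between P7 and P20, where 50.7% of all transcripts were called, 18 of 56 pathway transcripts were higher and 13 lower and 22 of 33 interferon transcripts were higher and 4 lower. Under median-ratio scaling the pathway counts were 19 and 7. The pathway list was thus called about as often as all transcripts. The interferon median at this step was 0.65 against -0.05 over all transcripts. Ccl5 rose from a mean of 3.46 to 22.7 TPM (2.41 ± 0.50, limma adjusted p = 0.000291), Ifit3 from 6.34 to 23.8 TPM (1.71 ± 0.30, adjusted p = 4.52e-05), Ifit1 from 3.12 to 12.9 TPM (1.69 ± 0.27, adjusted p = 1.65e-05) and Usp18 from 9.04 to 27.5 TPM (1.53 ± 0.28, adjusted p = 8.42e-05). Cxcl10 fell from 420 to 162 TPM (-1.47 ± 0.23, adjusted p = 8.06e-06), and Ikbke, a kinase related to TBK1, from 8.98 to 4 TPM (-1.01 ± 0.18, adjusted p = 6.43e-05). The rise between P7 and P20 thus took in Dhx58 and Ddx58 with interferon-responsive Ifit1, Ifit3 and Usp18, while Eif2ak2 and Cxcl10 fell. From E17 to P7 (background 10.8%) 4 pathway transcripts were higher and 4 lower, and 2 interferon transcripts higher and 3 lower. Ccl5 fell from 45.2 to 3.46 TPM (-3.18 ± 0.50, adjusted p = 0.000144), and Oas3 from 3.34 to 0.757 TPM (-1.30 ± 0.24, adjusted p = 0.00076). From P20 to P60 (background 12%) 3 pathway transcripts were higher and 7 lower, and 0 interferon transcripts were higher and 5 lower. Ifnb1 fell at this step from a mean of 1.78 to 0.132 TPM (-1.28 ± 0.29, adjusted p = 0.0052), being listed at 0 in 4 of the 6 P60 CTRL libraries, and Cxcl10 from 162 to 45.6 TPM (-1.70 ± 0.23, adjusted p = 3.17e-05). From E17 to P60 10 pathway transcripts were higher and 23 lower, and 13 interferon transcripts higher and 5 lower, no larger a share of either list than the 61.7% of all transcripts, with Cxcl10 at -2.74 ± 0.23 (adjusted p = 2.64e-10). Jun, a subunit of the AP-1 factor that acts beside IRF3 at the interferon-beta promoter, rose over that span from 1471 to 6431 TPM (2.10 ± 0.19, adjusted p = 1.08e-09). For MIA against Saline no transcript of either list was called at any age or averaged over ages. The share of all transcripts called there was 0%, so these lists say nothing apart from the rest.

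Likeness of pattern was measured as Pearson's correlation of log2(TPM + 1) over the 10 group means, a description over points that share treatments and libraries. Dhx58 was closest to Lgals3bp (0.983), Zmynd15 (0.975) and Parp9 (0.972), and Ddx58 to Irgm1 (0.976), Herc6 (0.967) and Trim34a (0.956). Eif2ak2 was closest to Slfn9 (0.968), Fbxw17 (0.961) and Slc26a11 (0.955). Tlr3 was closest to Gm996 (0.996), Degs2 (0.989) and Ppcdc (0.989), and Tbk1 to Rbm15 (0.979), Dmxl1 (0.976) and Tbc1d15 (0.971). The transcript closest to Ticam1 was Neat1 (0.912), to Mavs Ap5z1 (0.954), to Irf3 Kazn (0.969) and to Ifih1 St14 (0.962). Among the members the highest value joined Dhx58 and Ddx58 (0.832) and the lowest Tbk1 and Ifih1 (-0.842).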

How the data were processed

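The authors made non-stranded poly(A) libraries, aligned the reads to mm10 with Rsubread, ran featureCounts with the UCSC gene models, and left out genes under a CPM minimum. The deposited values are TPM per RefSeq transcript, computed by the authors, with each transcript's expression module beside them. Their TPM formula is not given in the sources used here. The counts that the authors tested with edgeR were not analysed here, so no count model was fitted. Because the libraries are non-stranded, antisense reads cannot be told apart.

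In R 4.3.3, limma 3.58.1 was fitted to log2(TPM + 1) of all 14225 transcripts in 30 libraries, with 10 group means, 14 contrasts, a mean-variance trend and Benjamini-Hochberg adjustment over all transcripts at 0.05. Log2 fold changes on this scale understate the change of transcripts near 0 TPM. Where groups are said not to overlap, this describes the single gene, and the share of all transcripts without overlap is not given. The fit was tested on simulated data. The number of reads behind a value was inferred from the spacing of low TPM values, with lengths of 14005 transcripts (98.45%). Of the low values in a library, 71.8% to 77.8% came within 0.2 of whole reads (chance gives 40%), so depth is approximate and reads were not used for tests. Litters, pools of brains or single mice were the replicates. Saline or poly(I:C) was given to the dam, and the sample labels used here name no litter. At P7, P20 and P60 littermates may thus count as separate replicates in the tests of MIA and of its interaction.

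All members were named, with the 4 largest calls per list and contrast by absolute log2 fold change, and for each member up to 3 transcripts of like pattern among 12636. Ccl5, Usp18, Ifnb1, Cxcl10 and Ifit values in single libraries or further groups were chosen after their values were seen. The members and lists were chosen with earlier results of these data known. Alternatives were another pseudocount (0.1), a minimum mean of 1 TPM, median-ratio and quantile scaling, log2 Xist as covariate, no trend, a replicate block, only the groups compared, and leaving out each library. Deviations of same-numbered Saline and MIA libraries correlated weakly at P20 (0.245, 0.112 and 0.138) and at P7 (0.125, -0.103 and -0.017). At E17 these correlations were 0.412, 0.671 and -0.003, and at P60 with control chow 0.213, -0.172 and 0.653. The labels do not say what a number marks, so no pairing was assumed and the reported fits held no replicate block. In both CTRL groups at P60, library 1 expressed Xist and libraries 2 and 3 held at most 0.29 TPM, so there the number went with sex by this transcript. A microglial marker and a pathway transcript are not reported here.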

Additional observations from a re-analysis of the deposited data

Results flagged for a closer look

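Of the 9 double-stranded RNA sensing genes, 2 responded differently to microglial repopulation in MIA and in Saline offspring by the test of the difference itself (interaction, limma on log2(TPM + 1), 3 libraries per group), where 10.5% of all transcripts passed it. For Dhx58 the effect in MIA minus that in Saline offspring was -1.02 (adjusted p = 0.0265), and for Eif2ak2 it was -0.79 (adjusted p = 0.0326), on the log2 scale. All 3 Saline + MG-REP libraries lay above all 3 MIA + MG-REP libraries for both genes, without a share over all transcripts to set beside this. Without Saline + MG-REP library 1 the differences were -1.26 and -0.98. Without library 2 of that group they were -0.92 (adjusted p = 0.0605) and -0.74 (adjusted p = 0.0639), and without library 3 they were -0.88 (adjusted p = 0.0694) and -0.65 (adjusted p = 0.0893). Both calls were also lost under quantile normalization and with only the groups compared, at -0.97 and -0.77 and at -1.02 and -0.79.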

How the results depend on the processing

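Direction was kept by each called member value under all alternatives, and each call of Dhx58 and Eif2ak2 for repopulation in Saline offspring and between MG-REP groups was kept. Of 1647 member values not called under either setting, 122 had another sign, none above 0.22 on the log2 scale. Counts of calls moved as follows. With only the groups compared, P7 against E17 gave 868 transcripts (1535 reported), repopulation in Saline offspring 1911 (3805 reported) and 2 members (4 reported), and the interaction 0 members (2 reported), as it did under quantile normalization. With log2 Xist as covariate, P60 against P20 gave 365 transcripts (1700 reported), P60 against E17 2 members (6 reported), and repopulation in MIA offspring 30 transcripts (79 reported). P60 against P20 gave 0 members (1 reported) with a pseudocount of 0.1, median-ratio scaling, quantile normalization or log2 Xist. Calls of repopulation in Saline offspring were 44.3% higher ones as reported, 57.5% under median-ratio scaling and 51.1% under quantile normalization, and those of P60 against P20 35.5%, 49.4% and 46.5%. Quantile normalization moved the median of all transcripts by -0.11 in MIA against Saline at E17.

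Leaving out 1 library gave 0 to 1 transcripts for MIA at E17, P7 and P20 and for the MIA effect among ages, 0 to 1 members for P60 against P20 and 3 to 7 for P60 against E17, the 3 without E17 Saline library 2. Repopulation gave 2460 to 3729 transcripts in Saline and 41 to 71 in MIA offspring, the interaction 963 to 1631 transcripts and 0 to 2 members, and MIA against Saline in MG-REP 1731 to 3141 transcripts, the lowest but that in MIA offspring without Saline + MG-REP library 1. The lowest in MIA offspring was without MIA + MG-REP library 1, and the interaction gave 0 members without Saline + CTRL library 2 or MIA + MG-REP library 3. The replicate block changed 1 call of a member, the Tlr3 interaction (0.72, adjusted p = 0.0259, against 0.0583 without it), and no other. The list counts under other settings were added after seeing the data, and over both scalings the RNA sensing list gave 16 to 18 higher and 6 to 7 lower for repopulation in Saline offspring. The cause of these shifts was not tested. With 3 libraries per group, small differences were not detectable, least so for Mavs, Irf3 and Ifih1, on an estimated 6 to 51 reads.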
